A study of Mus musculus with 6 samples.

Results

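The genes described here copy DNA and supply its building blocks: the proteins that license origins, the replicative helicase and its activators, the polymerases with their clamp and single-strand binding protein, the enzymes that join Okazaki fragments, the enzymes that make deoxynucleotides, and the factors that copy chromatin behind the fork. A list of 45 gene symbols set the membership, drawn up with earlier results of these data in view, and all 45 were found among the 27458 genes of the deposited table. The libraries came from bone marrow macrophages, which are primary cells grown out of mouse marrow under macrophage colony-stimulating factor (M-CSF). The study asked what RKIP does in macrophage differentiation; RKIP is the Raf kinase inhibitor protein, the product of Pebp1. Wild-type macrophages came from RKIP+/+ mice (WT1 to WT3) and knockout macrophages from RKIP-/- mice (KO1 to KO3), with 3 libraries in each group, and both groups received M-CSF. The labels give no strain, age, sex or time in culture. They also do not say whether the libraries of a group came from separate animals or cultures, so each p-value below reflects only how far these libraries scatter, and that scatter may be technical.

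Before a cell copies its DNA, the origin recognition complex, Cdc6 and Cdt1 load the Mcm2 to Mcm7 ring onto origins, a step called licensing. Cdc45 and the GINS complex then join the ring to make the active helicase, polymerase alpha with primase starts each strand, and polymerases epsilon and delta extend it on the sliding clamp Pcna, which the replication factor C complex loads. Ribonucleotide reductase, thymidylate synthase, thymidine kinase and dUTPase keep the deoxynucleotide pools balanced. Most of these genes are transcribed mainly in dividing cells under the control of E2F factors, and M-CSF is the growth factor that keeps cultured bone marrow macrophages dividing.

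Replication genes were lower in the RKIP knockout as a group. Of the 43 members that were tested, 29 fell, none rose and 14 did not pass the threshold, an adjusted p of 0.05 in the edgeR quasi-likelihood test with Benjamini-Hochberg adjustment over all 11636 genes tested. The 29 were 67.4% of the members tested, whereas 19.4% of all tested genes fell and 20.3% rose. The median log2 fold change of the members was -0.37, beside -0.01 over all tested genes. At an unadjusted p below 0.05 the edgeR test gave 32 members lower and 0 higher, and neither DESeq2 nor limma called a member higher. Of all genes called, 51.2% were on the higher side in edgeR and 62.8% in limma on log2(FPKM + 1). Limma called 23 members lower and 0 higher, against 14.1% of all tested genes lower and 23.8% higher, and DESeq2 called 30 lower and 0 higher, against 20.1% lower and 21.8% higher. When only genes averaging 5 FPKM or more were tested, 13 of 15 members fell, against 24.5% of all such genes lower and 23.7% higher.

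The changes were moderate in size. Levels are in FPKM, fragment counts scaled by transcript length and library size. Summed over the 45 members, expression was 263, 275 and 280 FPKM in WT1 to WT3 and 220.4, 222 and 234 FPKM in KO1 to KO3. The lowest WT sum lay above the highest KO sum, and the KO mean of 225.5 ± 7.25 FPKM (SD, n = 3) was 17.3% below the WT mean of 273 ± 8.33 FPKM (SD, n = 3). Only 7 of the 29 called members were at least 1.5-fold lower: Cdc45, Cdc6, Gins2, Pole, Rrm2, Dut and Rpa2. With an offset for transcript length and GC content, Rrm2, Dut and Rpa2 were 1.45-fold, 1.39-fold and 1.37-fold lower, and Tyms 1.51-fold. In 40 of the 43 tested members the estimated change was negative without the offset. The 3 with a positive estimate, Orc2, Pola1 and Rfc1, did not pass. With the offset, Pola1 and Rfc1 had negative estimates, and Gins4 and Rfc4 had positive ones (0.067 and 0.037 on the log2 scale). In bulk RNA, fewer dividing cells and less of each transcript per cell cannot be told apart.

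The 2 groups did not overlap in 27 of the 29 called members; the exceptions were Mcm6 and Mcm10. Over all 43 tested members, KO lay wholly below WT in 29, against 19.1% of all tested genes, and wholly above it in 1, Orc2, against 32.4% of all tested genes. Members were tested when their mean over the 6 libraries reached 1 FPKM, which Orc1 and Cdc7 did not. Cdc6, Pole and Tyms had KO means below 1 FPKM and so passed that filter through the WT libraries. Without any filter, all 45 members were tested, and 23 were lower and 0 higher, beside 6.15% of all 27458 genes lower and 8.23% higher. Cdc6, Pole and Tyms were among the 23, with adjusted p = 0.0198, 0.0137 and 0.0174.

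**Figure D1:**
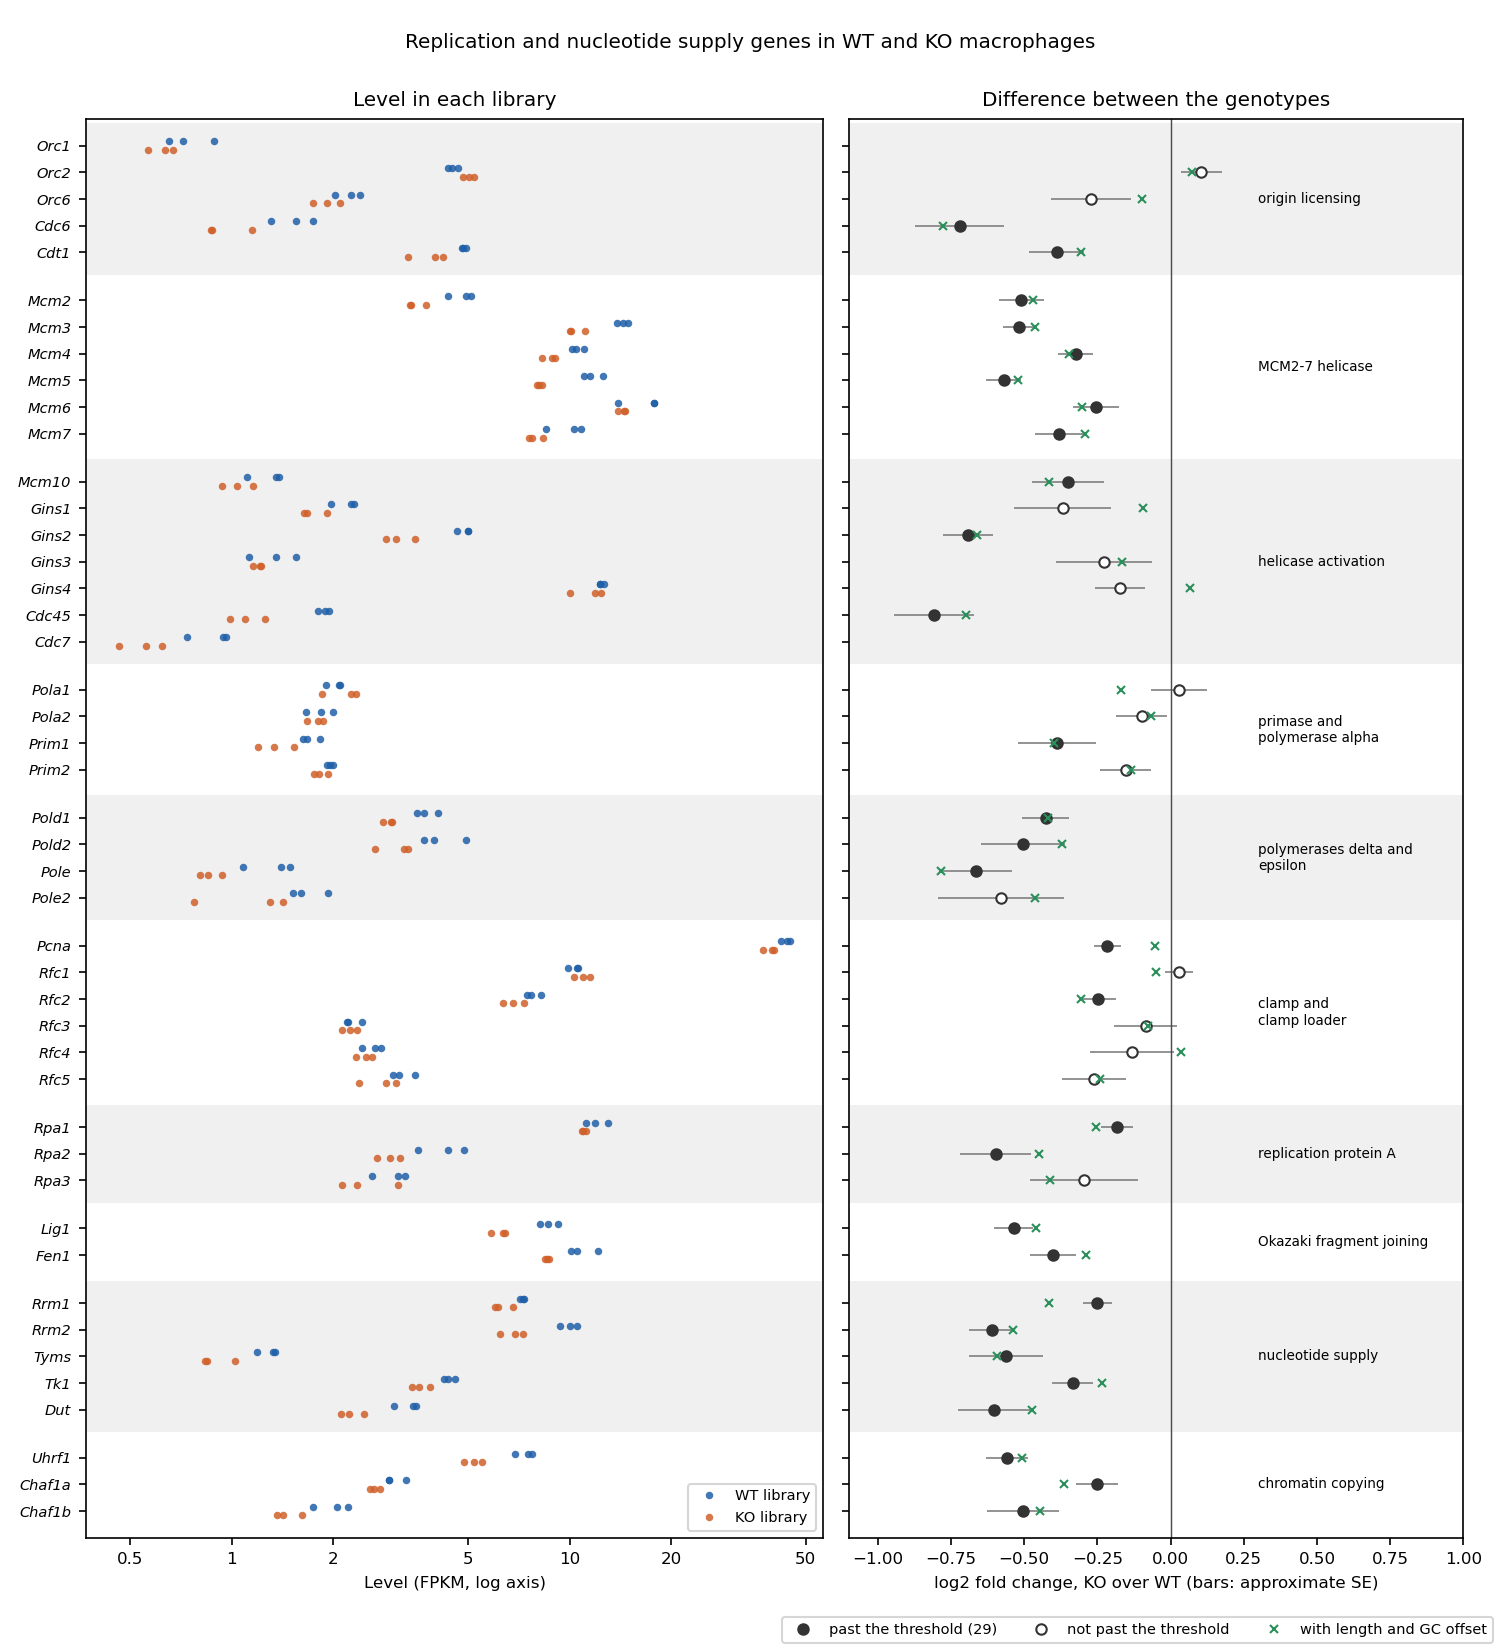
Left, the level of each of the 45 members in each library, as FPKM on a log axis, grouped by role, with WT libraries in blue and KO libraries in orange. Right, the log2 fold change of the 43 tested members with its approximate SE, filled where past the threshold (29) and open where not, and a cross for the value with the length and GC offset; all filled points lie left of 0, and only Orc2, Pola1 and Rfc1 have open points right of it.

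The stretches just upstream of some of these genes hold the words that E2F factors and the CCAAT-binding factor are known to bind, and 5 are shown because they contrast genes that fell with one that did not. They are 160 bases long, end at the base before the RefSeq start site, read 5′ to 3′ on the gene's strand, and come from RefSeq on build GRCm38.p6. Capitals mark the words searched on both strands. The E2F words were TTTGGCGC, TTTCCCGC, TTTGCCGC and TTTCGCGC, and the CCAAT box was CCAAT.
Mcm5, plus strand, chr8:75109349-75109508: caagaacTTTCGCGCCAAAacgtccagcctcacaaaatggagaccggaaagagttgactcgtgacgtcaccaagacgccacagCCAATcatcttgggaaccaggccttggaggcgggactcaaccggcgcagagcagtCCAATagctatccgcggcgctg
Mcm6, minus strand, chr1:128359706-128359865: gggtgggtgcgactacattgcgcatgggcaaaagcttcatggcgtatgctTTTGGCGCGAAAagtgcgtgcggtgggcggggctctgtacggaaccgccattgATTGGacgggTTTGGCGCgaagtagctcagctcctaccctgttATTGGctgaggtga
Cdc6, plus strand, chr11:98907991-98908150: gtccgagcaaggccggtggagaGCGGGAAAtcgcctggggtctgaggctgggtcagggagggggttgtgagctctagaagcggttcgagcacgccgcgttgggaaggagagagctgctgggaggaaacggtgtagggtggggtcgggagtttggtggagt
Pola1, minus strand, chrX:93632156-93632315: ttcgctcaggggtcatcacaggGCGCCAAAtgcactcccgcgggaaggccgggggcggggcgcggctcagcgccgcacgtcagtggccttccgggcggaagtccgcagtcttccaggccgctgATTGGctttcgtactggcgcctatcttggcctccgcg
Rrm1, plus strand, chr7:102441535-102441694: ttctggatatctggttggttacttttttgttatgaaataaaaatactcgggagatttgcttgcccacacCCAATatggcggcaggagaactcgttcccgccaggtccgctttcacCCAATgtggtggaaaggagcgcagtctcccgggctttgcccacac

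Mcm5 carries overlapping E2F words whose first bases lie 153 and 149 bases before the start, with CCAAT boxes at 77 and 22. In Mcm6, overlapping E2F words begin 110 and 106 bases before the start and another begins at 47, with CCAAT boxes at 57 and 14. Cdc6 and Pola1 each have an E2F word at 138, yet Cdc6 fell in KO and Pola1 did not pass the test. The Cdc6 stretch lies within the span of the deposited gene model, which begins further upstream. The Rrm1 stretch holds CCAAT boxes at 91 and 45 and none of the E2F words.

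RefSeq windows of 300 bases, from 250 before the start to 50 after it, were at hand for 38 of the 45 members; Gins1, Gins2, Gins4, Mcm4, Pole, Prim2 and Rfc2 had none. A gene was counted when any of its windows held the word. An E2F word was present in 14 of the 38 members (36.8%). The share was 2.605% of all 27025 genes with a window and 4.72% of the 8545 tested genes with a window. CCAAT was present in 24 of the 38 (63.2%), against 41.1% of all genes with a window and 43.1% of the tested genes. Within the members, neither word marked the genes that fell. The E2F words were in 9 of 25 members that fell (36%) and 4 of 11 that did not pass (36.4%), and CCAAT was in 16 of 25 (64%) and 7 of 11 (63.6%). A match describes the letters in the window and is not a binding site.

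Licensing genes moved unevenly. Of the 4 tested, Cdc6 and Cdt1 fell, Orc2 and Orc6 did not pass, and the summed level of all 5 was 13.9 ± 0.298 FPKM in WT and 12.4 ± 0.833 FPKM in KO (SD, n = 3 each). Cdc6, the loader ATPase at chr11:98907801-98923940, was at 1.55, 1.31 and 1.74 FPKM in WT1 to WT3 and 0.877, 0.867 and 1.15 FPKM in KO1 to KO3. Each KO library lay below each WT library, and the gene was 1.65-fold lower (log2 fold change -0.72, SE 0.15, adjusted p = 0.00305). Cdt1, the partner that brings the Mcm ring to origins, was at 4.95, 4.82 and 4.82 FPKM in WT1 to WT3 and 3.33, 4.23 and 4.01 FPKM in KO1 to KO3. KO1 was the lowest and no KO library reached the WT range, a 1.31-fold decrease with adjusted p = 0.00628. Orc2, a core subunit of the origin recognition complex, was at 4.49, 4.68 and 4.36 FPKM in WT1 to WT3 and 4.85, 5.22 and 5.04 FPKM in KO1 to KO3. Its groups did not overlap with KO on the higher side, but the log2 fold change of 0.10 (SE 0.07) did not pass, with adjusted p = 0.259. Orc6, another subunit, overlapped between groups at 2.23 ± 0.188 FPKM in WT and 1.92 ± 0.173 FPKM in KO (SD, n = 3 each; adjusted p = 0.134). Orc1, the largest subunit, averaged 0.753 ± 0.1202 FPKM in WT and 0.622 ± 0.0524 FPKM in KO, below the level needed for the test.

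Every gene of the helicase ring fell. The median log2 fold change of the 6, Mcm2 to Mcm7, was -0.44, and their summed level went from 67.8 ± 5.15 FPKM in WT to 53.01 ± 1.85 FPKM in KO (SD, n = 3 each), 78.2% of WT. Mcm5, at chr8:75109569-75128439, had the largest change of the 6, with 11.01, 12.5 and 11.5 FPKM in WT1 to WT3 and 8.03, 8.14 and 8.31 FPKM in KO1 to KO3. The 3 KO libraries were within a narrow range well below WT, and the gene was 1.49-fold lower (log2 fold change -0.57, SE 0.06, adjusted p = 3.10e-05). Mcm3 was at 13.8, 14.4 and 14.9 FPKM in WT1 to WT3 and 10.02, 10.1 and 11.1 FPKM in KO1 to KO3. Its groups were separate too, and it was 1.43-fold lower (SE 0.06 on the log2 scale, adjusted p = 3.77e-05). Mcm2, at 4.36, 5.103 and 4.94 FPKM in WT1 to WT3 and 3.36, 3.38 and 3.75 FPKM in KO1 to KO3, was 1.42-fold lower with adjusted p = 0.000323. Mcm4, which together with Mcm6 and Mcm7 forms the part of the ring able to unwind DNA on its own, went from 10.5 ± 0.411 to 8.74 ± 0.409 FPKM (SD, n = 3 each; adjusted p = 0.001398). Mcm7 went from 9.88 ± 1.21 to 7.88 ± 0.389 FPKM, 1.302-fold lower (adjusted p = 0.003699).

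Mcm6 was the ring gene whose call ended in some alternatives. It was at 13.9, 17.8 and 17.8 FPKM in WT1 to WT3 and 14.5, 13.9 and 14.6 FPKM in KO1 to KO3. WT1 sat inside the KO range while WT2 and WT3 lay above it, and the 1.19-fold decrease had adjusted p = 0.0236. That call ended without WT2 (adjusted p = 0.0943), WT3 (0.1002), KO2 (0.0708) or KO3 (0.0597), without a filter on low values (0.139), and under limma on log2(FPKM + 1) (0.135).

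Among the genes that switch the loaded ring into a working helicase, Cdc45, Gins2 and Mcm10 fell and 3 others did not pass. Cdc45, the helicase cofactor at chr16:18780447-18811972, was at 1.94, 1.88 and 1.81 FPKM in WT1 to WT3 and 1.09, 0.987 and 1.26 FPKM in KO1 to KO3. No KO library came near WT, and the 1.75-fold decrease was the largest among the tested members (log2 fold change -0.81, SE 0.14, adjusted p = 0.000777). With the length and GC offset Cdc45 was 1.62-fold lower, less than Cdc6 and Pole, each at 1.72-fold. The GINS complex is built of Gins1 to Gins4 in equal parts, and its transcripts moved to different degrees. Gins2 was at 4.99, 5.01 and 4.65 FPKM in WT1 to WT3 and 2.87, 3.05 and 3.49 FPKM in KO1 to KO3, with separate groups and a 1.61-fold decrease (SE 0.09 on the log2 scale, adjusted p = 8.99e-05). Gins1 was at 1.96, 2.301 and 2.25 FPKM in WT1 to WT3 and 1.91, 1.67 and 1.63 FPKM in KO1 to KO3, with groups that did not overlap, but it did not pass (log2 fold change -0.37, or -0.09 with the length and GC offset; adjusted p = 0.0965). Gins4, the most abundant of the complex per length, was at 12.3, 12.6 and 12.3 FPKM in WT1 to WT3 and 9.998, 12.4 and 11.9 FPKM in KO1 to KO3. KO2 lay inside the WT range, and Gins4 did not pass (adjusted p = 0.1297). Gins3 also overlapped, at 1.34 ± 0.214 FPKM in WT and 1.19 ± 0.0358 FPKM in KO (SD, n = 3 each; adjusted p = 0.299). The differences between the GINS genes were not tested.

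Mcm10, which helps the helicase fire, was at 1.11, 1.38 and 1.35 FPKM in WT1 to WT3 and 1.04, 0.935 and 1.15 FPKM in KO1 to KO3. KO3 lay above WT1, and the 1.28-fold decrease passed narrowly (adjusted p = 0.0398). The call ended without WT2 (adjusted p = 0.126), WT3 (0.118), KO1 (0.0802) or KO2 (0.12001), without the filter (0.118) and under limma on log2(FPKM + 1) (0.161). Cdc7, the kinase that phosphorylates the ring to start origins, averaged below 1 FPKM and was not tested with the others. It was at 0.941, 0.737 and 0.959 FPKM in WT1 to WT3 and 0.556, 0.465 and 0.622 FPKM in KO1 to KO3, so that the groups were separate, and without the filter it was 1.65-fold lower (adjusted p = 0.0291).

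Among the priming enzymes, Prim1 fell and the other 3 genes did not pass. Summed over Pola1, Pola2, Prim1 and Prim2, the KO level was 94.4% of WT. Pola1, the catalytic subunit of polymerase alpha, was at 2.07, 2.09 and 1.903 FPKM in WT1 to WT3 and 2.25, 1.85 and 2.33 FPKM in KO1 to KO3. The KO libraries spread on both sides of WT, and the log2 fold change was 0.03 (SE 0.10, adjusted p = 0.839). Pola2 at 1.83 ± 0.169 and 1.78 ± 0.0952 FPKM and Prim2 at 1.96 ± 0.0411 and 1.83 ± 0.0883 FPKM (WT and KO, SD, n = 3 each) also did not pass, with adjusted p = 0.398 and 0.186. Prim1, the primase that lays the RNA primer, was at 1.62, 1.67 and 1.82 FPKM in WT1 to WT3 and 1.34, 1.195 and 1.53 FPKM in KO1 to KO3. Its KO range lay below its WT range, 1.31-fold lower with adjusted p = 0.0377. The Prim1 call ended when any library but KO3 was left out, with adjusted p = 0.0571 without WT1, 0.0693 without WT2, 0.118 without WT3, 0.0772 without KO1 and 0.123 without KO2. It also ended without the filter (0.0889) and under limma on log2(FPKM + 1) (0.0677).

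Polymerases delta and epsilon had the lowest summed KO level relative to WT of all 10 roles: 10.99 ± 0.658 FPKM in WT and 8.02 ± 0.155 FPKM in KO (SD, n = 3 each), 27.0% lower. Pole, the catalytic subunit of the leading-strand polymerase at chr5:110286306-110337474, was at 1.08, 1.401 and 1.49 FPKM in WT1 to WT3 and 0.936, 0.806 and 0.852 FPKM in KO1 to KO3. All KO libraries were below all WT libraries, a 1.58-fold decrease (log2 fold change -0.66, SE 0.12, adjusted p = 0.00138). Pold1, the catalytic subunit of the lagging-strand polymerase, was at 3.54, 4.09 and 3.71 FPKM in WT1 to WT3 and 2.96, 2.98 and 2.81 FPKM in KO1 to KO3. The groups were separate, and it was 1.34-fold lower (adjusted p = 0.00146). Pold2, its accessory subunit, was at 3.98, 3.69 and 4.94 FPKM in WT1 to WT3 and 2.65, 3.34 and 3.23 FPKM in KO1 to KO3, and WT3 was the highest library. It was 1.42-fold lower with adjusted p = 0.0153, and this call ended without WT3 (0.0741), without KO1 (0.0564), without the filter (0.0642) and with an offset for transcript length and GC content (0.0724). Pole2, the second subunit of polymerase epsilon, was at 1.92, 1.52 and 1.601 FPKM in WT1 to WT3 and 1.42, 0.774 and 1.296 FPKM in KO1 to KO3. KO2 stood far below the other KO libraries, and the 1.49-fold difference did not pass (adjusted p = 0.0507). Without KO1, Pole2 passed (adjusted p = 0.0266), as it did under DESeq2 (0.0197) and with counts divided by 4 (0.0446).

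The sliding clamp fell slightly, and most of its loader did not pass. Pcna, the clamp and the most abundant member per length, was at 44.9, 42.4 and 44.1 FPKM in WT1 to WT3 and 40.2, 37.4 and 39.8 FPKM in KO1 to KO3. Its groups were separate, and it was 1.16-fold lower (log2 fold change -0.22, SE 0.05, adjusted p = 0.00339). Its level is uncertain, because a processed copy, Pcna-ps2, shares 99.2% of its sequence and was itself listed at 14.2 ± 0.960 FPKM in WT and 15.0 ± 1.34 FPKM in KO (SD, n = 3 each; adjusted p = 0.912). Summed, the 2 were 58.0 ± 2.15 FPKM in WT and 54.1 ± 2.81 FPKM in KO, with KO1 and KO3 both at 55.7 FPKM against 56.0 FPKM in WT2. The Pcna call also ended with the offset for length and GC content (log2 fold change -0.05, adjusted p = 0.255).

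Of the 5 loader subunits, which open the clamp around DNA, Rfc2 alone passed. Rfc2 was at 7.69, 7.504 and 8.25 FPKM in WT1 to WT3 and 6.35, 7.35 and 6.798 FPKM in KO1 to KO3, with separate groups and a 1.19-fold decrease (adjusted p = 0.00688). That call ended without the filter (0.0525) and under limma on log2(FPKM + 1) (0.0577). Rfc1, the large subunit, was at 10.3 ± 0.372 FPKM in WT and 10.9 ± 0.592 FPKM in KO (SD, n = 3 each; adjusted p = 0.687). Rfc3 and Rfc4 also overlapped, with log2 fold changes of -0.09 and -0.13 (adjusted p = 0.565 and 0.5001). Rfc5 was at 3.13, 2.99 and 3.49 FPKM in WT1 to WT3 and 3.06, 2.39 and 2.87 FPKM in KO1 to KO3, where KO1 lay inside the WT range and KO2 was the lowest. It did not pass (adjusted p = 0.0745), although it did without KO1 (0.0396).

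Replication protein A coats the single strands that the helicase exposes, and 2 of its 3 subunit genes fell. Rpa2, the regulatory subunit at chr4:132768332-132778752, was at 3.56, 4.38 and 4.86 FPKM in WT1 to WT3 and 2.68, 3.16 and 2.95 FPKM in KO1 to KO3. All KO libraries lay below WT1, the lowest WT library, and Rpa2 was 1.51-fold lower (log2 fold change -0.60, SE 0.12, adjusted p = 0.00238). Rpa1, the large DNA-binding subunit, was at 11.2, 11.9 and 12.97 FPKM in WT1 to WT3 and 10.9, 11.2 and 10.9 FPKM in KO1 to KO3. KO2 and WT1 were nearly equal, the decrease was 1.13-fold (adjusted p = 0.0202), and the call ended without WT3 (0.0945), without KO3 (0.0653), without the filter (0.111) and under limma on log2(FPKM + 1) (0.134). Rpa3 overlapped between groups at 2.99 ± 0.339 FPKM in WT and 2.53 ± 0.519 FPKM in KO (SD, n = 3 each; adjusted p = 0.2296).

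Both genes that finish Okazaki fragments fell, and their summed KO level was 75.4% of WT. Lig1, the DNA ligase that seals the fragments, at chr7:13277283-13311433, was at 8.61, 9.27 and 8.19 FPKM in WT1 to WT3 and 5.84, 6.46 and 6.36 FPKM in KO1 to KO3. The groups were far apart relative to their spread, and Lig1 was 1.45-fold lower (log2 fold change -0.54, SE 0.07, adjusted p = 9.67e-05). Fen1, the flap nuclease that trims the fragments, was at 10.1, 10.5 and 12.2 FPKM in WT1 to WT3 and 8.44, 8.56 and 8.71 FPKM in KO1 to KO3. The KO libraries lay close together and below WT, a 1.32-fold decrease (adjusted p = 0.00182).

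All 5 nucleotide supply genes fell. Their median change was -0.56 on the log2 scale, and their summed level went from 26.2 ± 0.693 FPKM in WT to 19.9 ± 1.38 FPKM in KO (SD, n = 3 each), 75.8% of WT. Rrm2, the small subunit of ribonucleotide reductase, whose supply rises in dividing cells, at chr12:24708241-24714146, was at 9.39, 10.5 and 10.03 FPKM in WT1 to WT3 and 6.88, 6.21 and 7.27 FPKM in KO1 to KO3. Every KO library was below every WT library, and it was 1.53-fold lower (log2 fold change -0.61, SE 0.08, adjusted p = 0.000122). Rrm1, the large subunit of the same enzyme, was at 7.11, 7.28 and 7.33 FPKM in WT1 to WT3 and 6.13, 6.02 and 6.803 FPKM in KO1 to KO3, and its 1.19-fold decrease had adjusted p = 0.00205; its log2 fold change was -0.25, and -0.41 with the length and GC offset. The difference between the subunits was not tested. Dut, the dUTPase that keeps uracil out of DNA, was at 3.51, 3.43 and 3.03 FPKM in WT1 to WT3 and 2.23, 2.101 and 2.47 FPKM in KO1 to KO3. Its groups were separate, and it was 1.52-fold lower (SE 0.12 on the log2 scale, adjusted p = 0.002402). Tyms, thymidylate synthase, was at 1.32, 1.34 and 1.18 FPKM in WT1 to WT3 and 0.845, 0.831 and 1.02 FPKM in KO1 to KO3, and its 1.48-fold decrease had adjusted p = 0.00448 (0.0174 without the filter). Tk1, the thymidine kinase of dividing cells, went from 4.39 ± 0.166 to 3.61 ± 0.219 FPKM (SD, n = 3 each), 1.26-fold lower with adjusted p = 0.00303.

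The 3 genes that copy chromatin marks behind the fork also fell. Uhrf1, which reads hemimethylated DNA and brings in the maintenance methyltransferase, was at 6.896, 7.73 and 7.53 FPKM in WT1 to WT3 and 5.22, 4.88 and 5.496 FPKM in KO1 to KO3. Its groups were well apart, and the gene at chr17:56303321-56323486 was 1.47-fold lower (log2 fold change -0.56, SE 0.07, adjusted p = 0.000126). Chaf1b and Chaf1a are subunits of the chromatin assembly factor that places histones on new DNA. Chaf1b was at 2.05, 2.21 and 1.74 FPKM in WT1 to WT3 and 1.36, 1.62 and 1.41 FPKM in KO1 to KO3, 1.42-fold lower with separate groups (adjusted p = 0.00687). Chaf1a was at 2.92, 3.29 and 2.92 FPKM in WT1 to WT3 and 2.64, 2.56 and 2.75 FPKM in KO1 to KO3. Its KO range lay just below its WT range, 1.19-fold lower with adjusted p = 0.0148. The Chaf1a call ended without WT2 (0.0725), without the filter (0.0502) and under limma on log2(FPKM + 1) (0.0984).

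**Figure D2:**
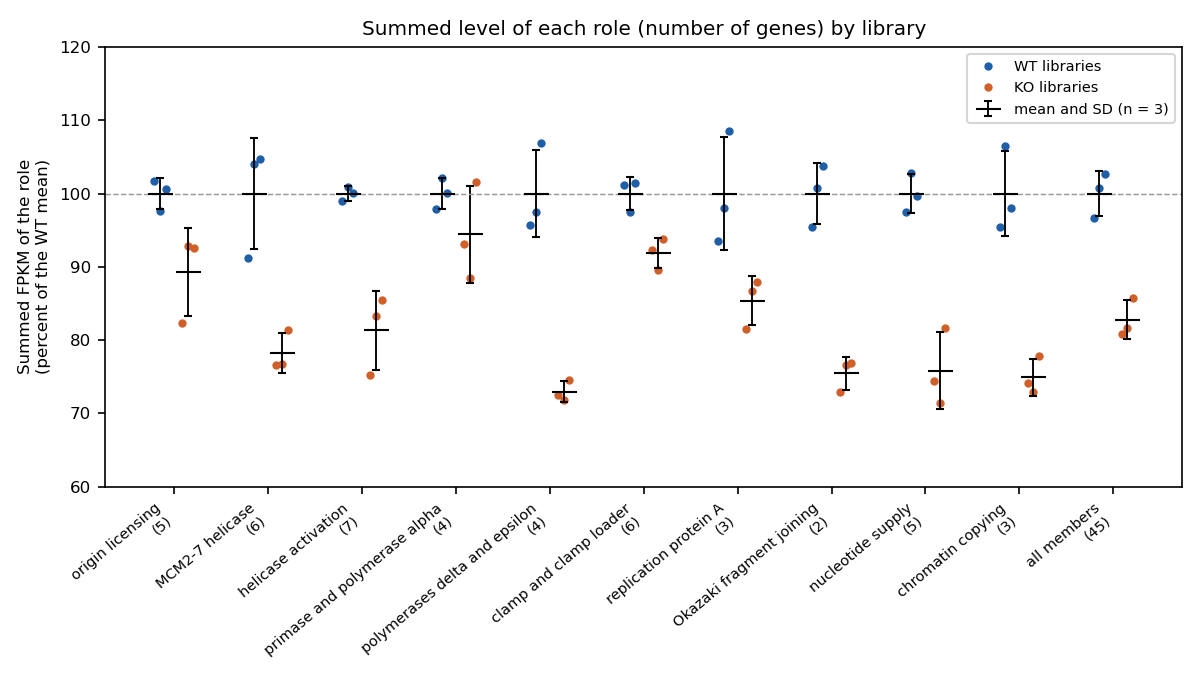
Summed FPKM of each role as a percent of its WT mean, with 1 point per library, the mean and the SD (n = 3); the axis starts at 60 and the number of genes is in brackets. KO points lie below WT points in every role except primase and polymerase alpha, and the KO mean is lowest for polymerases delta and epsilon (73.0%).

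Transcript length and fold change were related over all genes, with short transcripts lower and long transcripts higher in KO. When tested genes were cut by length into 10 groups of like size, those with the shortest transcripts, from 38 to 966 bases, had a median of -0.32 on the log2 scale, and those with the longest, from 6575 to 40378 bases, had 0.20. The members were therefore set beside genes of like length. Among transcripts of 1000 to 2000 bases, 4 of 9 members fell with a median of -0.37, whereas 33.6% of all tested genes of that length fell with a median of -0.14. From 2000 to 4000 bases, 17 of 23 members fell with a median of -0.40, against 17.6% of all genes and a median of -0.03. From 4000 to 8000 bases, 8 of 10 members fell with a median of -0.25, although only 7.69% of all genes of that length fell and their median was 0.11. With an offset for length and GC content in the edgeR test, 27 members fell and none rose, beside 14.6% of all genes lower and 17.0% higher, and the members' median was -0.36 against 0.01. Pcna and Pold2 were the members whose calls ended with that offset.

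**Figure D3:**
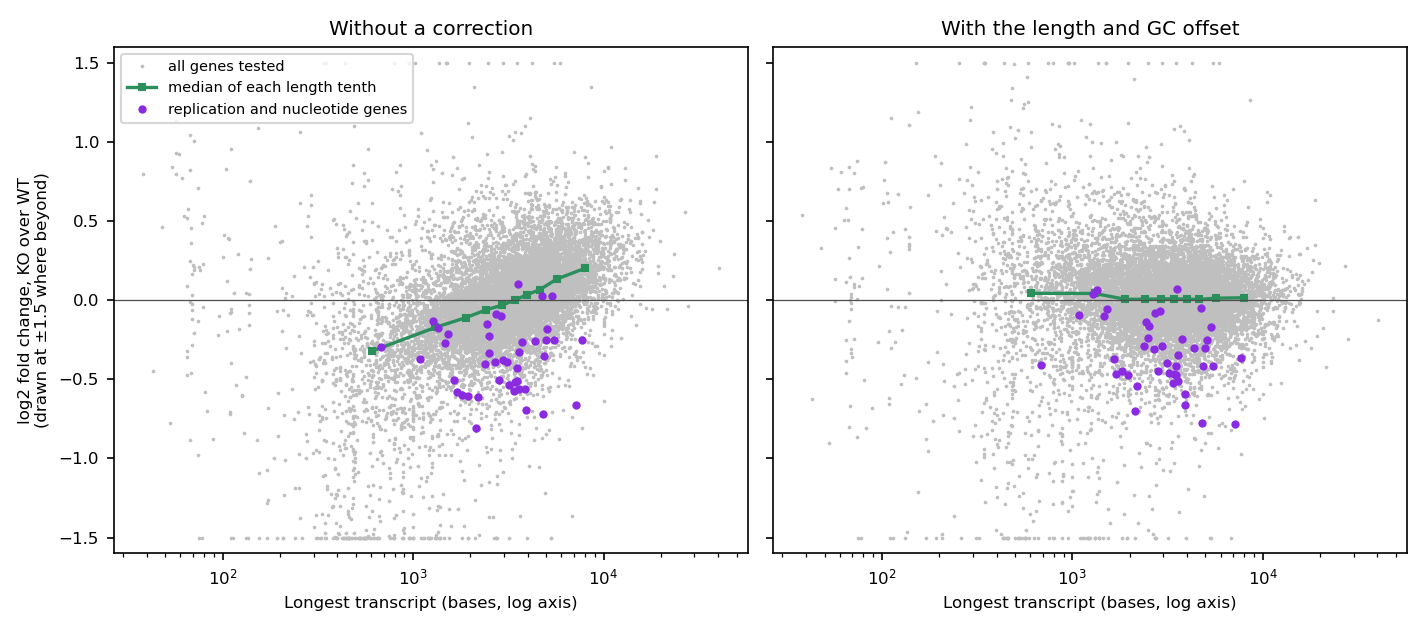
Log2 fold change, KO over WT, against the longest transcript's length in bases on a log axis, without (left) and with (right) the length and GC offset; grey points are all tested genes, drawn at 1.5 or -1.5 where beyond, purple points the 43 tested members, and squares the median of each of 10 length groups. The squares run from -0.32 to 0.20 on the left and lie near 0 on the right, and most members lie below them in both.

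The members lie on 14 chromosomes, and 8 are on chromosome 5, which also carries Pebp1 at chr5:117282654-117287625. Gene positions are as in the deposited table, whose build is not given in the sources used here; the positions of 38 of the 45 members are identical to those of GENCODE M21 on GRCm38. Rfc5, at chr5:117378103-117389047, lies 0.0954 Mb from Pebp1, the nearest of the members, and Pole lies 7.00 Mb away; the strain background of the targeted allele is not in the labels. The exons of 10 members overlap a gene on the opposite strand that was at 1 FPKM or more in WT, and it is not given whether counting used strand, so reads of the partners may be mixed; these members are Cdc45, Chaf1a, Fen1, Gins2, Mcm7, Orc2, Orc6, Rfc2, Rfc4 and Rfc5. The longest such overlaps were Chaf1a with Ubxn6, over 4648 bases, and Gins2 with Gse1, over 2758 bases. Gse1 averaged 3.40 FPKM in WT and 4.23 FPKM in KO, and Ubxn6 6.03 and 6.54 FPKM. Partners lower in KO included Lat2, over 952 bases of Rfc2, at 28.4 and 24.4 FPKM in WT and KO. Tmem258, which overlaps Fen1, was at 10.3 and 7.51 FPKM, and Cops6, which overlaps Mcm7, at 22.3 and 19.5 FPKM. Nif3l1 and Wsb2 were also lower on average, and Ufd1, Ap4m1, Vps35 and Eif4a2 higher. The part of the partners in the member result was not tested. Sequences like processed copies were matched for 11 members. Apart from Pcna-ps2, the copies listed in the deposited table averaged at most 0.162 FPKM in either group. The copies matched to Mcm4, Mcm6 and Orc1, and some of those matched to Rrm2, were not listed, so their levels are not known. With the members that have such an overlap or copy left aside, 16 of 25 tested members fell, beside 19.4% of all tested genes.

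Other genes of replication and nucleotide metabolism, taken from 6 lists, moved in both directions. Of 94 tested, 36 fell and 12 rose, with a median log2 fold change of -0.14, where 19.4% of all tested genes fell and 20.3% rose. With the length and GC offset, 34 fell and 10 rose, where 14.6% of all genes fell and 17.0% rose. Among other replication genes, 11 of 27 fell and 5 rose (median -0.10). Top2a, the topoisomerase of dividing cells, was at 11.4, 12.3 and 11.8 FPKM in WT1 to WT3 and 9.25, 9.14 and 10.9 FPKM in KO1 to KO3, 1.26-fold lower (adjusted p = 0.00138). Top2b, its relative that non-dividing cells also make, went the other way with separate groups, at 9.099, 9.07 and 8.87 FPKM in WT1 to WT3 and 12.96, 12.9 and 13.9 FPKM in KO1 to KO3, 1.42-fold higher (adjusted p = 8.17e-06); its log2 fold change was 0.50, and 0.21 with the offset. Timeless, a fork protection factor, went from 1.71 ± 0.0656 to 1.303 ± 0.0788 FPKM (1.36-fold lower, adjusted p = 0.00443). Dnmt1, Dna2, Rnaseh2a, Rnaseh2b, Pole4, Tipin, Clspn, Wdhd1 and Gmnn also fell, and Orc3, Orc4, Top1 and Chtf8 rose. Dna2 averaged 0.883 FPKM in KO and so passed the filter through the WT libraries. Without the filter, Dna2 was lower in the edgeR test with adjusted p = 0.0263. The calls of Orc3 and Orc4, further origin recognition subunits, and of Top1 ended with the length and GC offset (adjusted p = 0.303, 0.907 and 0.222).

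Of 9 histone chaperones, 2 fell and the rest did not pass (median -0.09), where 19.4% of all tested genes fell and 20.3% rose. Asf1b, the chaperone form of dividing cells, went from 8.38 ± 0.1803 to 5.63 ± 0.492 FPKM (SD, n = 3 each), 1.54-fold lower with adjusted p = 0.000112, and Ssrp1, a subunit of the FACT complex, was 1.146-fold lower (adjusted p = 0.00488; 0.05002 in limma), with a log2 fold change of -0.20, or -0.12 with the offset. Supt16, the other FACT subunit, was at 15.6 ± 1.27 and 17.5 ± 0.0741 FPKM (WT and KO) and did not pass (adjusted p = 0.121). Among deoxynucleotide and folate genes, 8 of 14 fell and 2 rose (median -0.34), or 7 and 3 with the length and GC offset (median -0.18). Nme2, a nucleoside diphosphate kinase, was at 96.5, 83.1 and 82.2 FPKM in WT1 to WT3 and 60.1, 59.7 and 61.8 FPKM in KO1 to KO3, and its groups were separate (1.496-fold lower, adjusted p = 2.42e-05; log2 fold change -0.58, and -0.27 with the offset). Nme1 and the mitochondrial folate enzyme Shmt2 were 1.56-fold and 1.34-fold lower (adjusted p = 0.000132 and 0.000189). Mthfd1, Mthfd2, Dtymk and Dctpp1 were among the others that fell. The genes that rose were Cmpk1 and Rrm2b, the p53-controlled small subunit of ribonucleotide reductase that serves non-dividing cells. With the offset, the log2 fold change went from 0.47 to 0.26 for Rrm2b and from 0.27 to 0.16 for Cmpk1.

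Of 20 genes of purine and pyrimidine synthesis and salvage, 9 fell and 1 rose (median -0.20). Pnp, purine nucleoside phosphorylase, went from 46.8 ± 2.85 to 29.9 ± 0.223 FPKM (SD, n = 3 each), 1.63-fold lower with adjusted p = 1.96e-06, and Guk1, guanylate kinase, was 1.68-fold lower (adjusted p = 0.000264; log2 fold change -0.75, or -0.46 with the offset). Prps2, which makes the activated ribose for nucleotides, was 1.37-fold higher (adjusted p = 3.59e-05). In the list of E2F factors and Rb proteins, 5 of 15 fell and 3 rose (median -0.15). Over all tested genes, the shares to set beside this and the other lists were 19.4% lower and 20.3% higher. Rb1, the retinoblastoma protein that restrains E2F activators, was at 9.49, 10.3 and 9.396 FPKM in WT1 to WT3 and 15.9, 15.7 and 16.4 FPKM in KO1 to KO3. All KO libraries lay above all WT libraries, 1.58-fold higher with adjusted p = 1.93e-06, and with the length and GC offset the log2 fold change was 0.49. Rbl2, its relative, was 1.29-fold higher (adjusted p = 4.15e-05), while Tfdp1, the dimer partner of E2F factors, was 1.22-fold lower (adjusted p = 0.00221). E2f2, E2f4, E2f8 and Mybl2 also fell and Tfdp2 rose. Mybl2 averaged 0.937 FPKM in KO and so passed the filter through the WT libraries. Without the filter, Mybl2 was lower in the edgeR test with adjusted p = 0.0337. Of 9 checkpoint genes tested, Brca1 fell (1.29-fold, adjusted p = 0.0108) and Chek2 rose (1.42-fold, adjusted p = 0.000121), with a list median of -0.11. Brca1 did not pass in limma (0.0754), and of the genes named above, nor did Orc4, Dnmt1, Clspn, Wdhd1, Gmnn, E2f4 and Tfdp2 (adjusted p = 0.0507, 0.0862, 0.0967, 0.0933, 0.0502, 0.175 and 0.0933). Without the filter, Orc4, Top1, Tipin, Pole4, Clspn, Wdhd1, Gmnn, Dtymk, E2f4, E2f8 and Tfdp2 did not pass. Wee1, the kinase that delays mitosis, was at 4.24 ± 0.2004 and 5.06 ± 0.204 FPKM and did not pass (adjusted p = 0.0604), but did with the length and GC offset (0.0398) and without KO2 (0.0453). Of the other pathway genes named as called, Gmnn, Pole4, Dctpp1, Dtymk, E2f4 and Tfdp2 did not pass with that offset (adjusted p = 0.706, 0.0718, 0.305, 0.831, 0.5905 and 0.625).

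**Figure D4:**
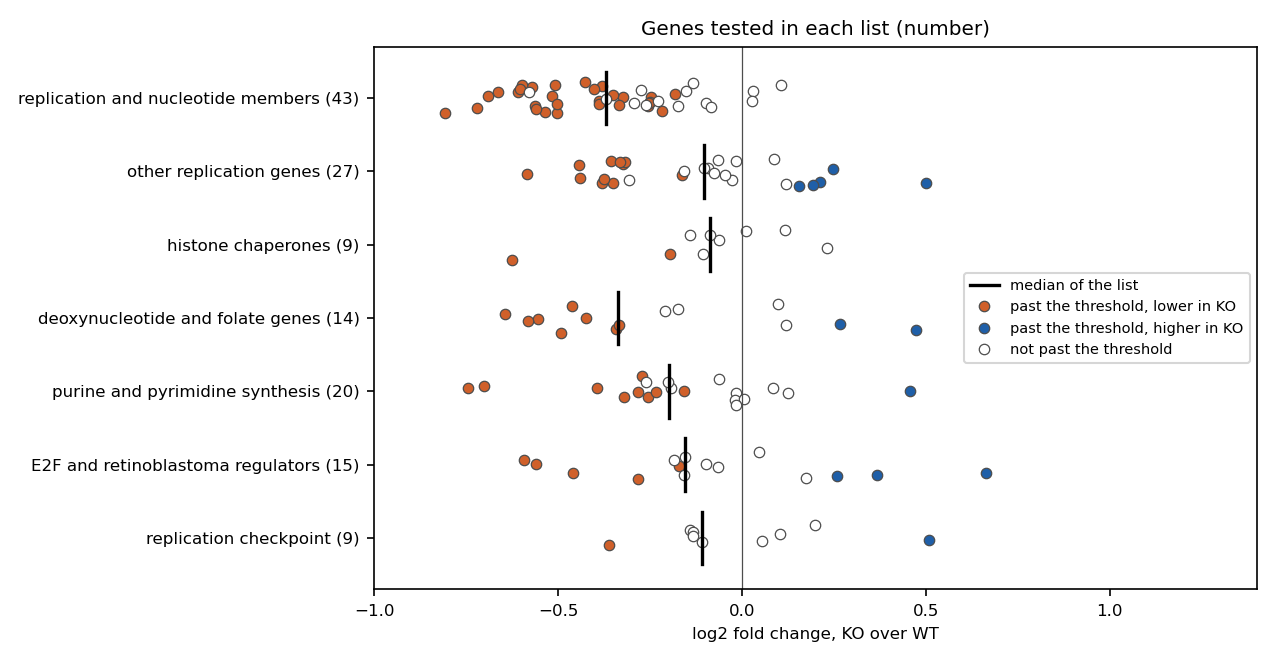
Log2 fold change, KO over WT, of every tested gene in the member list and in the 6 pathway lists, with a black bar at each list's median; filled points passed the test, orange lower and blue higher, and open points did not. The member list has the lowest median, -0.37, followed by the deoxynucleotide and folate list at -0.34 (-0.36 and -0.18 with the length and GC offset, not drawn), and the pathway lists hold genes on both sides of 0.

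The state of the libraries was measured beside these results. Pebp1 was at 39.2, 33.2 and 39.0 FPKM in WT1 to WT3 and had 0 counts in every KO library, which matches the labels. Library totals were 53188659 to 55255365 estimated counts in WT and 63607276 to 70059042 in KO. Members took 0.119% to 0.128% of the counts in WT and 0.0964% to 0.101% in KO. Their counts ran from 137 to 7065 per library, and the 29 that fell had a median mean count of 1515, against 642 for the 14 that did not pass. Among 10 macrophage markers, all were expressed, 3 rose and 4 fell, or 4 and 1 with the length and GC offset, under which Cd68 turned from a log2 fold change of -0.15 to 0.12. Csf1r, the M-CSF receptor, was at 296 to 300.0 FPKM in WT and 366 to 397 FPKM in KO.

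Neutrophil transcripts were also lower in KO. Of 12 neutrophil markers, 7 were tested and all 7 fell, but their KO means were under 1 FPKM, so they passed the filter through WT and had to differ. Without the filter, 9 of the 12 were lower. The summed level of the list was 69.1 to 155 FPKM in WT and 3.04 to 3.45 FPKM in KO. WT1 had the lowest neutrophil sum of the WT libraries, and it also had the lowest member sum. Among the KO libraries the order was the reverse: KO1 had the highest neutrophil sum and the lowest member sum. S100a9 was at 23.3 FPKM in WT1, and at 72.1 and 75.6 FPKM in WT2 and WT3. The part of these transcripts in the member result was not tested. Elane, Mpo and Prtn3 were at most 0.370 FPKM in any library. Other genes of the list were higher in WT: Ngp averaged 24.8 FPKM in WT and 0.915 FPKM in KO, and Ltf 6.95 and 0.190 FPKM. Camp averaged 2.49 and 0.535 FPKM and Lcn2 2.90 and 0.113 FPKM, in WT and KO. Whether any of these transcripts came from dividing cells was not tested. Of 8 haematopoietic progenitor markers none reached the test, with list sums of 1.45 to 1.82 FPKM in WT and 1.36 to 1.62 FPKM in KO, and Kit was at most 0.114 FPKM. The erythroid sums were 0.970 to 2.54 FPKM in WT and 1.51 to 1.77 FPKM in KO. B cell sums were 3.59 to 4.27 and 5.00 to 5.13 FPKM, nearly all of it Ebf1, T and NK cell sums 0.164 to 0.427 and 0.323 to 0.577 FPKM, and dendritic cell sums 4.66 to 4.77 and 6.69 to 7.30 FPKM, mostly Itgax, in WT and KO. Other B cell markers were under 0.5 FPKM, and Cd79b averaged 0.263 FPKM in WT and 0.0256 FPKM in KO. The stromal and osteoblast list summed to 895 to 992 FPKM in WT and 867 to 989.5 FPKM in KO, with Col1a1 at 451 to 512 and 430 to 499 FPKM. Collagens carry that sum. Within the list Alpl fell (adjusted p = 0.000632), while Sp7 did not pass, at 5.09 FPKM in WT and 5.04 FPKM in KO. With the length and GC offset, 3 of the list fell: Alpl, Col1a1 and Col3a1 (adjusted p = 0.00618, 0.000584 and 0.00197). Without the filter, the endothelial genes Cdh5 and Pecam1 were 2.07-fold and 2.11-fold lower (adjusted p = 0.0396 and 0.0126). The part of these falls in the member result was not tested. Malat1, a nuclear RNA, was at 66.1 to 86.7 FPKM in WT and 134 to 166 FPKM in KO, and its part in the member result was not tested.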

How the data were processed

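Polyadenylated RNA was sequenced from 3 WT and 3 KO libraries. Per the labels' protocols, RNA was extracted with Trizol and made into stranded dUTP libraries. The submitters' processing notes name cutadapt 1.9, HISAT2 2.0.4 and StringTie 1.3.4d; genome build and strand use in counting are not given in the sources used here. The authors deposited FPKM and estimated counts per gene, already rounded to whole numbers; the value 4 occurs 5769 times, against 3204 for 3 and 2041 for 5, so about 4 counts stand for 1 fragment.

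Levels are the deposited FPKM. Tests used the deposited counts in edgeR 4.0.16 (R 4.3.3), a quasi-likelihood fit with TMM scaling over the 11636 genes averaging 1 FPKM or more, with Benjamini-Hochberg adjustment at 0.05. The standard error is the log2 fold change divided by the root of F. Alternatives were DESeq2 1.42.0, limma 3.58.1 on log2(FPKM + 1) or log2(FPKM + 0.1), other scaling and filters, counts divided by 4, a loess offset for length and GC content (span 0.3), a replicate block and each library left out. The fitting steps were tested on simulated data. The simulated counts held no length or GC trend between the groups, so they could not test what the offset removes. With counts divided by 4, replicate pairs had a chi-square of 4.05 to 8.70 per degree of freedom, where sampling alone gives about 1, so no libraries were merged. All members are accounted for in the text, with every library's value for the called members of lowest p and the most abundant member of each role; from each pathway list the 3 genes with the lowest p are given with values where called. The members and lists were chosen with earlier results of these data known.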

Additional observations from a re-analysis of the deposited data

How the results depend on the processing

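No member rose under any of the 16 alternatives, and 21 of the 29 calls held in each alternative that tested the gene. The count of members that fell was 29 with median-ratio scaling, 30 with DESeq2, 30 with counts divided by 4, 23 with either limma fit, 23 without a filter, 27 with the length and GC offset, and 24 to 28 with 1 library left out. With a minimum mean of 5 FPKM it was 13, because only 15 members were tested. The members' median log2 fold change was -0.42 to -0.31 with 1 library left out. In limma it was -0.23 on log2(FPKM + 1) and -0.30 on log2(FPKM + 0.1). The limma fits used the deposited FPKM without TMM scaling, and the cause of the smaller medians was not tested. Pathway genes lower and higher, 36 and 12 in the report, were 27 and 14 in limma on log2(FPKM + 1), 28 and 10 without a filter, 25 and 9 at 5 FPKM and 39 and 13 in DESeq2; leaving out 1 library gave 31 to 34 lower and 8 to 13 higher, and 1794 to 2047 of all genes lower and 1969 to 2272 higher.

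The sign of 4 members that did not pass was not stable. With the length and GC offset, alone and with the replicate block, the log2 fold change was 0.067 and 0.062 for Gins4, -0.17 and -0.17 for Pola1, -0.049 and -0.049 for Rfc1, and 0.037 and 0.038 for Rfc4. With 1 library left out it ran from -0.030 to 0.13 for Pola1 and from -0.0056 to 0.057 for Rfc1. The causes were not tested.

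WT and KO libraries share replicate numbers, and the deviations of same-numbered libraries from their group means had correlations of 0.02, 0.19 and -0.04, so the numbers were not taken to pair them; WT1 correlated best with KO3. The replicate block gave 31 members lower, adding Pole2 (adjusted p = 0.0164) and Rfc5 (0.0385), and 2294 of all genes lower and 2407 higher; with the block and the offset together 27 members were lower. Standard errors of the members reached 0.22 on the log2 scale (Pole2).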
